A study of Mus musculus with 4 samples.

Results

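ErbB receptors and the growth factors that bind them were followed in the transcriptomes of mouse skin fibroblasts with and without LAP2alpha, a nucleoplasmic partner of lamin A/C. The set held 10 genes of the 23728 gene symbols in the count files, namely the ligands *Ereg*, *Areg*, *Epgn*, *Btc*, *Hbegf*, *Tgfa* and *Nrg1* and the receptors *Egfr*, *Erbb2* and *Erbb3*. They were picked by symbol, and 11 of the 32757 RefSeq transcript IDs carried one of the symbols. Each gene was read from its ID with the highest count summed over all libraries, a choice that does not use the genotype and that mattered only for *Egfr*, which had a second ID.

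The cells were *Tmpo* KO imMDFs, labelled Lap2alpha -/- and described as lacking the fourth exon of *Tmpo*, and *Tmpo* WT imMDFs, labelled Lap2alpha +/+. Both are immortalized fibroblasts of the dermis grown in medium with fetal calf serum, and rRNA-depleted RNA of each genotype was sequenced once at passage 34 (replicate 1) and once at passage 42 (replicate 2). A single line stands for each genotype in the sources used here, so the deletion and any other difference between these lines cannot be told apart. Mouse strain, age and the way of immortalization are not given there, nor is it said that replicates were separate cultures beyond their passage, so p-values describe the variation among these 4 libraries and may reflect technical variation alone.

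ErbB receptors are tyrosine kinases that pair with one another when a ligand binds. EGF, TGF alpha, amphiregulin, epigen, betacellulin, epiregulin and HB-EGF bind EGFR, some of them also ErbB4, whereas neuregulins bind ErbB3 and ErbB4, and ErbB2 takes part in the pairs without a known soluble ligand of its own. The ligands are made as transmembrane precursors that ADAM proteases cut from the cell surface, and active receptors signal largely through Ras and the ERK kinases, which in turn raise their own inhibitors. In skin, EGFR ligands are best known from keratinocytes, and mice lacking TGF alpha or with weakened EGFR have wavy hair.

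The libraries held 15786136 (passage 34) and 19603812 (passage 42) reads given to transcripts in KO and 12168433 and 15677378 in WT. The LAP2alpha transcript of *Tmpo* had 6 counts in each KO library against 903 and 1324 in WT (log2 fold change −7.86, standard error 0.337, adjusted p = 1.26e-06), as the labels say, although reads of a deleted exon are missing at any transcript level. Tested were the 13855 transcripts that reached 1 CPM, over all reads given to transcripts, in each replicate of one genotype or the other. The test is edgeR's quasi-likelihood test with Benjamini-Hochberg adjustment over all of them. Values below are CPM, counts scaled to library size (reads given to these 13855 transcripts) with TMM factors. At an adjusted p under 0.05, 209 of these transcripts were higher in KO (1.51%) and 172 were lower (1.24%), 2.75% in either direction, and the median log2 fold change over all transcripts tested was 0.02. Of the marker genes of the dermal fibroblast list, 2 of 15 had no count in any library (*Pdgfrb* and *Sparc*, each split over several IDs), and the list's summed level was 14050 and 19450 CPM in KO and 17430 and 16040 CPM in WT. Levels in the list were uneven, from 3675 to 5179 CPM for *Vim* to 0.74 to 2.44 CPM for *Lum*, which has a single ID. *Pdgfra* (1.51 to 4.09 CPM) and *Dcn* (4 to 12.6 CPM), each with 2 IDs, were low too. A single gene of that list passed the test, *Thy1*, a surface protein of fibroblasts, which was higher in KO (log2 fold change 1.80, standard error 0.268, adjusted p = 0.00469). Keratinocyte markers summed to 36.9 and 26.9 CPM in KO and 31.4 and 31.3 CPM in WT, with no gene of the 15 above 87 counts in any library and *Trp63* at 0 in all of them. All 7 markers at 0 in every library, in this list and the others, had several IDs. Reads in exons that such IDs share were set aside, so a 0 does not show absence. Melanocyte and Schwann cell markers (38.4 to 52.0 CPM in KO, 36.9 to 44.95 CPM in WT) and endothelial markers (11.2 to 14.0 CPM in KO, 11.2 to 12.5 CPM in WT, *Tek* at 0) overlapped between genotypes. Most of the melanocyte and Schwann cell sum was *Tyr* in each library (40.3 and 30.0 CPM in KO, 26.5 and 35.1 CPM in WT). Leukocyte markers summed to 16.4 and 12.4 CPM in KO against 9.77 and 9.13 CPM in WT with *Itgam* and *Cd68* at 0. Most of each leukocyte sum was *Csf1r* alone (10.7 and 9.2 CPM in KO, 5.6 and 5.2 CPM in WT), while *Ptprc* had 0 to 4 counts per library. No gene of the leukocyte list passed the test, and the part of these markers in the results was not tested. In bulk RNA, fewer cells of a type and less RNA per cell cannot be told apart.

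Of the 10 genes, all of which passed the filter on low values, *Ereg* and *Hbegf* were higher in KO and none was lower at an adjusted p under 0.05. This is 2 genes beside 1.51% of all transcripts tested, and nothing was read from that difference, since the genes were proposed with results of these libraries known. An unadjusted p under 0.05 was found for 6 of the 10 and for 1768 of all 13855 transcripts tested. DESeq2 and edgeR's exact test each called *Btc* lower. An edgeR fit with replicate number, and so passage, as a block called *Btc*, *Egfr* and *Nrg1* lower. The 10 log2 fold changes lay between −1.55 and 3.30 with a median of −0.01. By direction alone, both KO libraries were above both WT libraries for 4 genes (*Ereg*, *Areg*, *Epgn* and *Hbegf*; 21.9% of all transcripts tested) and below both for 2 (*Btc* and *Egfr*; 19.9%). The other 4, *Tgfa*, *Nrg1*, *Erbb2* and *Erbb3*, overlapped between the genotypes. *Epgn* passed the filter through KO alone (1.54 and 1.09 CPM, against 0.168 and 0.702 CPM in WT), which favours its direction.

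**Figure D1:**
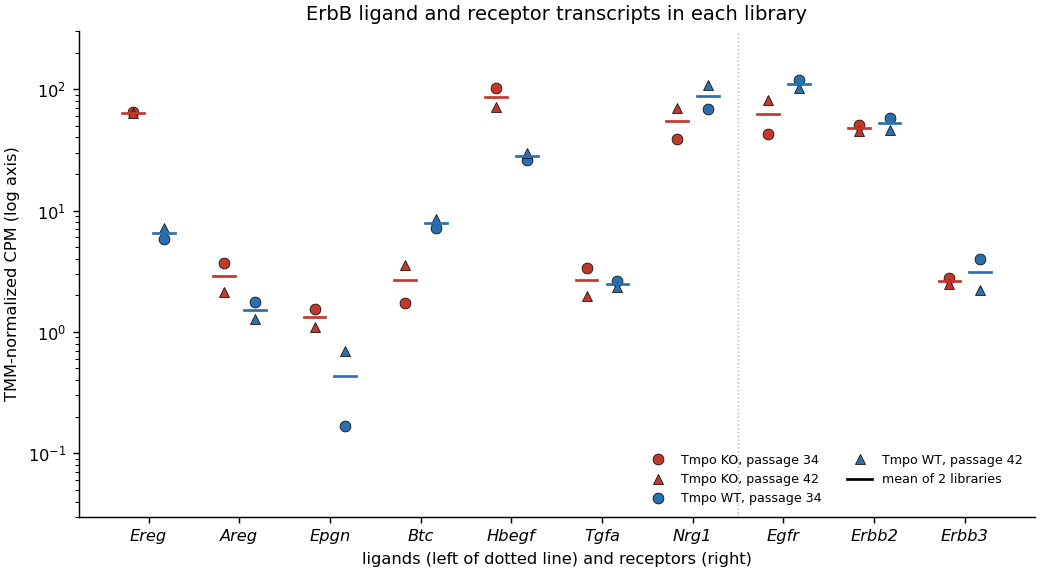
Normalized level in CPM, on a log axis, of each ErbB ligand and receptor transcript in the single libraries of *Tmpo* KO (red) and *Tmpo* WT (blue) at passage 34 (circles) and passage 42 (triangles), with lines at the mean of 2 libraries. The KO points of *Ereg* lie at 64.3 and 64.2 CPM, far above the WT points at 5.81 and 7.21 CPM, while *Erbb2*, *Erbb3*, *Tgfa* and *Nrg1* overlap between the genotypes.

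*Ereg* encodes epiregulin, a ligand of EGFR and ErbB4. It lies on the plus strand of chromosome 5 of mm9 (chr5:91503643-91522675) and overlaps no other annotated gene. Coordinates are those of mm9 unless another build is named. The libraries held 1043 and 1235 *Ereg* counts at passages 34 and 42 in KO, against 69 and 113 counts in WT. Both KO libraries were thus well above both WT libraries at almost the same level, with 64.2 ± 0.0919 CPM in KO and 6.51 ± 0.992 CPM in WT (SD, n = 2 each). The difference was 9.82-fold, or 3.30 on the log2 scale with a standard error of 0.257 (edgeR adjusted p = 8.38e-05). By size, *Ereg* stood 23rd among the 209 transcripts higher in KO, and by unadjusted p it stood 9th among all transcripts tested.

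*Hbegf* encodes heparin-binding EGF-like growth factor, which binds EGFR and ErbB4 and is held in the matrix by heparan sulfate. It lies on the minus strand of chromosome 18 (36664583 to 36675459) with no overlapping gene. Its counts were 1653 and 1382 in KO and 311 and 465 in WT at passages 34 and 42. In CPM the KO libraries had 101.9 and 71.8 and the WT libraries 26.2 and 29.7, so the lower KO library was still above the higher WT library. Means were 86.8 ± 21.3 CPM in KO and 27.9 ± 2.47 CPM in WT (SD, n = 2 each), a 3.10-fold difference, or 1.63 on the log2 scale with a standard error of 0.24 (edgeR adjusted p = 0.00441). The call was lost when the WT library of passage 34 was left out (adjusted p = 0.0532, log2 fold change 1.55).

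*Ereg* has 3 more EGFR ligand genes beside it on chromosome 5. *Epgn*, which encodes epigen, starts at −47.15 kb from the *Ereg* start (chr5:91456490-91464241, plus strand), *Areg* at 65 kb (chr5:91568641-91577458, plus strand), and *Btc*, with its lower end at 282.6 kb, occupies chr5:91786287-91831939 on the minus strand. None of them passed the test, and their values went in different directions. *Areg* encodes amphiregulin, an EGFR ligand that binds heparin. It had 60 and 41 counts in KO and 21 and 20 counts in WT, or 3.70 and 2.13 CPM against 1.77 and 1.28 CPM. Both KO libraries were above both WT libraries, and the log2 fold change was 0.94 ± 0.449 (standard error) at an adjusted p of 0.43. *Epgn* had 25 and 21 counts in KO and 2 and 11 counts in WT, or 1.54 and 1.09 CPM against 0.168 and 0.702 CPM. The order of the genotypes was the same as for *Areg*, and the log2 fold change was 1.49 ± 0.578 (standard error) at an adjusted p of 0.28, from few reads. It was 0.89 without the WT library of passage 34 and 2.89 without that of passage 42. *Btc* encodes betacellulin, a ligand of EGFR and ErbB4. It had 28 and 69 counts in KO and 85 and 133 counts in WT, or 1.73 and 3.58 CPM against 7.16 and 8.49 CPM. Here both KO libraries were below both WT libraries, and the log2 fold change was −1.55 ± 0.411 (standard error) at an adjusted p of 0.086. *Btc* fell on the other side of the threshold with DESeq2 (adjusted p = 0.019) and with edgeR's exact test (0.0129). It did so too in the edgeR fit with replicate number as a block (adjusted p = 0.000685). The annotation places *Btc* within the span of *Gm15710*, a pseudogene of the same strand. Counts of *Areg* and *Epgn* were within the range seen for keratinocyte markers in these fibroblasts, at most 87.

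The promoters of these neighbours are shown because their genes lie side by side and their values, none past the test, differed in direction. The RefSeq table of GRCm38.p6 held 6 of the 10 genes (*Areg*, *Epgn*, *Btc*, *Tgfa*, *Egfr* and *Erbb2*), each with 250 bases before and 50 bases after the transcript start. Each sequence is 300 bases long and runs 5′ to 3′ along the strand of its gene, and capitals mark a cAMP response element (TGACGTCA) or a TATA box (TATAAA). The *Areg* window is chr5:91139349-91139648 on the plus strand, the *Epgn* window chr5:91027267-91027566 on the plus strand and the *Btc* window chr5:91402945-91403244 on the minus strand, all in GRCm38.p6 and not in the build of the counts.
Areg: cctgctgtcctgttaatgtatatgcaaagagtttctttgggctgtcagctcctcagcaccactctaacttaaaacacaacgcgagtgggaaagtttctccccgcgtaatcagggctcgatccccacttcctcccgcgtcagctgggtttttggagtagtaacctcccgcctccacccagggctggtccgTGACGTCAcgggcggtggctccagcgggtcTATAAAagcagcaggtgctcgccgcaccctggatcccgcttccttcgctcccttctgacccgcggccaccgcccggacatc
Epgn: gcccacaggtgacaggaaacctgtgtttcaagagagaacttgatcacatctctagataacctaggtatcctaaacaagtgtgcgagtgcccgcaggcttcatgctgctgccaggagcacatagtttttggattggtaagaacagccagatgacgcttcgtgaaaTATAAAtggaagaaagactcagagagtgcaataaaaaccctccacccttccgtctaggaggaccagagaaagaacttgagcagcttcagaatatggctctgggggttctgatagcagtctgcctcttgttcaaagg
Btc: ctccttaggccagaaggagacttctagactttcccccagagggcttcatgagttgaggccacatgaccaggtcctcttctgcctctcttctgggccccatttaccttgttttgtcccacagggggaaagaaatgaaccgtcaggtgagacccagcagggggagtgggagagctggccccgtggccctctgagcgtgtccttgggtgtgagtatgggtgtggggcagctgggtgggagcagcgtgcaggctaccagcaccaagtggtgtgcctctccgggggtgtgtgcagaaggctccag
The *Areg* window held a cAMP response element from base 190 and a TATA box from base 220, the *Epgn* window a TATA box from base 165, and the *Btc* window neither. No AP-1 site (TGANTCA) was found in any of the 6 windows. Both strands were searched, the letters of these motifs do not overlap one another in the 3 windows, and the TATA box was added to the search after the sequences had been seen. Over all 32851 promoters of the table, 7.81% held the AP-1 letters, 1.79% the cAMP response element and 13.6% the TATA box letters. These matches describe letters and do not show that a factor binds there.

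A window of 500 kb on each side of the span between *Ereg* and *Btc* held 17 annotated genes, of which 15 were matched to counts and 12 were tested. Of these 12 genes, 1 was higher in KO (*Ereg*) and 2 were lower, beside 1.51% and 1.24% of all transcripts tested, and the median log2 fold change was 0.40. The 2 lower genes were CXC chemokine genes upstream of *Ereg*. *Cxcl1*, which encodes a neutrophil chemoattractant, had 62 and 84 counts in KO and 1066 and 1507 counts in WT (log2 fold change −4.50, standard error 0.253, adjusted p = 1.18e-05), and it starts at −183.4 kb from the *Ereg* start. *Cxcl5*, another ligand of the neutrophil receptor CXCR2, had 1028 and 1543 counts in KO and 2220 and 2691 counts in WT (log2 fold change −1.32, standard error 0.208, adjusted p = 0.0059) and starts at −315.3 kb. The KO libraries were below the WT libraries for both genes. The remaining 6 non-ligand genes tested in this window did not pass, with log2 fold changes of 1.82 for the chemokine gene *Ppbp* (adjusted p = 0.17, but 0.0028 with no filter and 1.47e-06 without the KO library of passage 42), 1.00 for *Rassf6*, 0.61 for *Albfm1*, 0.19 for *Parm1*, 0.05 for *Cxcl15* and −0.16 for *Mthfd2l*. *Pf4*, *Cxcl2* and *Cxcl3* had between 2 and 16 counts in each library and were not tested. Genes that differed upward and downward in KO thus lay in the same window.

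**Figure D2:**
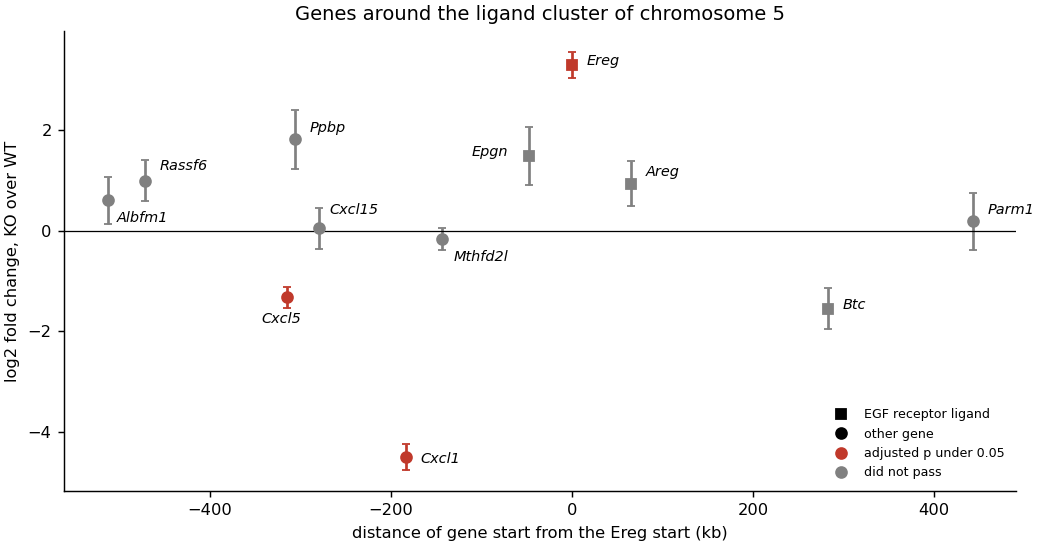
Log2 fold change, *Tmpo* KO over WT, of the 12 genes tested within 500 kb of the span between *Ereg* and *Btc* on chromosome 5, against the distance of the gene start from that of *Ereg* in kb. Squares are EGFR ligands, circles other genes, red marks an adjusted p under 0.05 and bars are standard errors, and *Ereg* at 3.30 stands between *Cxcl1* at −4.50 and *Btc* at −1.55.

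*Tgfa* encodes TGF alpha, an EGFR ligand, and lies on chromosome 6 (86145420 to 86225151, plus strand). Its counts were 55 and 38 in KO and 31 and 37 in WT, or 3.39 and 1.97 CPM against 2.61 and 2.36 CPM. The WT libraries lay between the KO libraries, and the log2 fold change was 0.10 ± 0.421 (standard error) at an adjusted p of 0.966. *Nrg1* encodes neuregulin 1, a ligand of ErbB3 and ErbB4, and lies on chromosome 8 (32928500 to 33119581, minus strand), where it overlaps *Gm17443* of the other strand. Its counts were 631 and 1356 in KO and 810 and 1708 in WT, or 54.7 ± 22.3 CPM in KO and 88.6 ± 28.9 CPM in WT (SD, n = 2 each). The genotypes overlapped, since the KO library of passage 42 (70.4 CPM) was above the WT library of passage 34 (68.2 CPM), and the log2 fold change was −0.70 (standard error 0.305, adjusted p = 0.365). Within each passage the KO library was the lower (log2 CPM difference −0.81 at passage 34 and −0.63 at passage 42). With replicate number as a block, edgeR called *Nrg1* lower in KO (adjusted p = 0.00939).

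The sums and shares below leave out *Egf*, which is not in the set (3.64 and 4.78 CPM in KO, 4.13 and 5.49 CPM in WT). Added up within each library, the 6 EGFR ligands of the set came to 176.5 and 144.7 CPM in KO against 43.7 and 49.7 CPM in WT. *Ereg* and *Hbegf* together made 94.1% (95% exact binomial interval 93.2% to 94.97%) and 93.9% (93.0% to 94.8%) of these ligand reads in the KO libraries and 73.2% (69.2% to 77.0%) and 74.2% (71.0% to 77.2%) in the WT libraries, intervals that cover counting error only. The pair is the 2 genes called higher in KO in these same libraries. Its larger share in KO follows largely from that choice and is a description, not further evidence. The remaining *Areg*, *Epgn*, *Btc* and *Tgfa* summed to 10.35 and 8.78 CPM in KO and to 11.7 and 12.8 CPM in WT. The share of *Hbegf* was 57.7% and 49.6% in KO and 59.9% and 59.7% in WT, that of *Ereg* 36.4% and 44.3% in KO and 13.3% and 14.5% in WT, and that of *Btc* 0.978% and 2.48% in KO and 16.4% and 17.1% in WT. Besides *Ereg*, the share that differed most was that of *Btc*, which was lower in both KO libraries. Any share also falls when *Ereg* and *Hbegf* rise. That of *Areg* was lower in KO too (2.1% and 1.5% against 4.0% and 2.6% in WT), although *Areg* had the higher CPM in KO. The *Btc* share is therefore a description as well.

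The 3 receptors did not pass the quasi-likelihood test, nor did they with DESeq2 or edgeR's exact test, and *Egfr* alone had an unadjusted p under 0.05. In edgeR fits with no filter on low counts (adjusted p = 0.0289) and with replicate number as a block (adjusted p = 0.0003), *Egfr* did pass as lower in KO. With single libraries left out, its log2 fold change lay between −1.38 (without the KO library of passage 42) and −0.43 (without the KO library of passage 34). *Egfr*, the EGF receptor, lies on chromosome 11 (16652206 to 16818161, plus strand) and overlaps *Gm17664* and *E230015J15Rik* of the other strand. Its counts were 688 and 1575 in KO and 1401 and 1600 in WT, or 42.4 and 81.8 CPM against 118.0 and 102.2 CPM. Both KO libraries were below both WT libraries, but the KO libraries were themselves far apart, with 62.1 ± 27.9 CPM in KO and 110.1 ± 11.2 CPM in WT (SD, n = 2 each), and the log2 fold change was −0.82 (standard error 0.284, adjusted p = 0.204). The other *Egfr* ID (NM_007912) had 22 and 34 counts in KO and 33 and 48 counts in WT, and the log2 fold change was −0.90 ± 0.403 (standard error) at an adjusted p of 0.383. Reads in exons that both IDs share were set aside as ambiguous, so neither count measures *Egfr* as a whole. *Erbb2*, the receptor without a known soluble ligand, lies on the same chromosome (98273784 to 98299030, plus strand) and overlaps *U6* and *1810046J19Rik* of the other strand. It had 825 and 868 counts in KO and 689 and 728 counts in WT, or 48.0 ± 4.07 CPM in KO and 52.2 ± 8.17 CPM in WT (SD, n = 2 each). The libraries overlapped, and its log2 fold change of −0.12 ± 0.223 (standard error) at an adjusted p of 0.909 was less than its error. *Erbb3*, a receptor with a weak kinase that signals through its partners, lies on chromosome 10 (128004579 to 128026708, minus strand). It had 45 and 48 counts in KO and 47 and 35 counts in WT, within the range of the keratinocyte markers, and a log2 fold change of −0.22 ± 0.418 (standard error) at an adjusted p of 0.915.

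**Figure D3:**
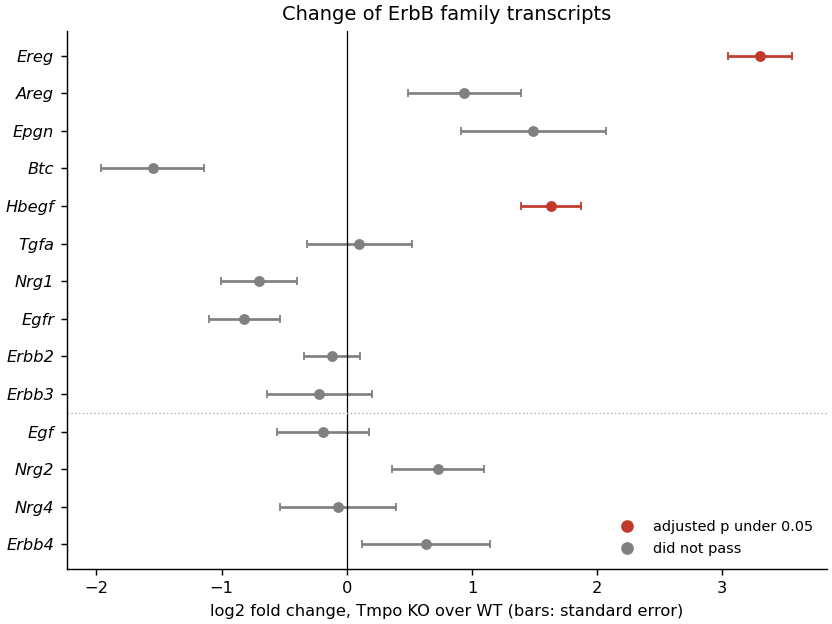
Log2 fold change, *Tmpo* KO over WT, of the 10 ErbB ligand and receptor transcripts (above the dotted line) and of 4 further family members (below it), with standard errors as bars and red for an adjusted p under 0.05. Only *Ereg* (3.30) and *Hbegf* (1.63) are red, and *Btc* (−1.55) has the most negative value.

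Levels of different genes were compared per kb of exon length for the 9 genes with a single ID. In KO the mean level was highest for *Hbegf* with 36.6 CPM per kb, followed by *Nrg1* (16.98) and *Ereg* (15.5), whose library ranges overlapped, then *Erbb2* (9.21) and *Areg* (2.43). *Btc* (0.950), *Epgn* (0.748) and *Tgfa* (0.713) overlapped in KO, and *Erbb3* was lowest with 0.438 CPM per kb. In WT the highest was *Nrg1* with 27.5 CPM per kb, followed by *Hbegf* (11.8) and *Erbb2* (10.0), which overlapped, and *Btc* (2.80). *Ereg* (1.58) and *Areg* (1.27) overlapped in WT, as did *Tgfa* (0.661) with *Erbb3* (0.515) and *Erbb3* with *Epgn* (0.247). Per kb, the ratio of *Ereg* to *Areg* was 5.04 and 8.73 in the KO libraries and 0.953 and 1.64 in the WT libraries. The ratio of *Hbegf* to *Nrg1* was 3.56 and 1.38 in KO and 0.521 and 0.369 in WT, so the more abundant of these transcripts was *Hbegf* in both KO libraries and *Nrg1* in both WT libraries.

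Within each passage, with 1 library per genotype and hence no test, 8 of the 10 genes differed in the same direction at passage 42 and passage 34. At least 41.9% of all transcripts tested did so too, being those whose genotypes did not overlap. The full share was not counted, so nothing was read from the number of genes. The log2 CPM difference, KO minus WT with a prior count of 2, was 3.13 at passage 42 and 3.44 at passage 34 for *Ereg*, and 1.27 at passage 42 and 1.95 at passage 34 for *Hbegf*. At passages 42 and 34 it was −1.22 and −1.98 for *Btc*, −0.32 and −1.47 for *Egfr*, and −0.63 and −0.81 for *Nrg1*. All 5 differences were smaller in size at passage 42. At passages 42 and 34, *Areg* had 0.68 and 1.01, *Epgn* 0.55 and 2.50 (the second against 2 counts in WT, so that its size depends on the prior count), and *Erbb2* −0.04 and −0.19. *Tgfa* (−0.24 at passage 42 and 0.36 at passage 34) and *Erbb3* (0.15 and −0.49) changed sign between the passages.

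**Figure D4:**
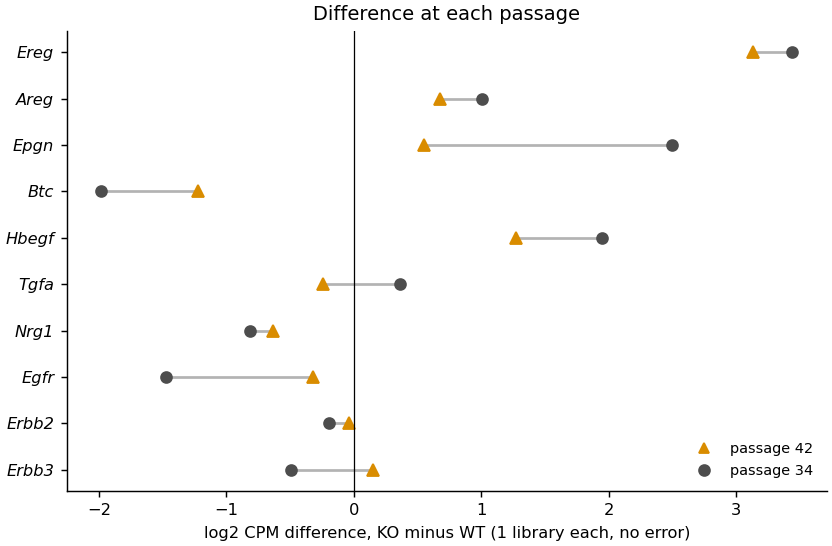
Difference in log2 CPM, *Tmpo* KO minus WT, for the 10 genes at passage 42 (orange triangles) and passage 34 (grey circles), from 1 library per genotype and without error. *Ereg*, *Areg*, *Epgn* and *Hbegf* lie to the right of 0 at both passages, *Btc*, *Nrg1*, *Egfr* and *Erbb2* to the left, and *Tgfa* and *Erbb3* on both sides.

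Passage 42 was also compared with passage 34 with genotype in the model, where 245 of the transcripts tested were higher at passage 42 (1.77%) and 75 were lower (0.541%), 2.31% in either direction. Of the 10 genes, *Nrg1* was higher at passage 42 and none was lower. *Nrg1* had 70.4 CPM in KO and 109.0 CPM in WT at passage 42, against 38.9 and 68.2 CPM at passage 34 (log2 fold change 0.77, standard error 0.207, adjusted p = 0.0165 from edgeR). Each passage 42 library was above the passage 34 library of its genotype. DESeq2 did not call it (adjusted p = 0.161, log2 fold change 0.75). For *Ereg* the passage effect was 0.13 (adjusted p = 0.929) and for *Hbegf* −0.17 (adjusted p = 0.86).

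Of the 5 further family members, 4 were tested and none passed with edgeR's quasi-likelihood test, edgeR's exact test or DESeq2, or at an unadjusted p under 0.05. *Nrg2*, which encodes another neuregulin, had 150 and 129 counts in KO and 69 and 60 counts in WT, with both KO libraries above both WT libraries (log2 fold change 0.73, standard error 0.365, adjusted p = 0.458). *Egf* had 59 and 92 counts in KO and 49 and 86 counts in WT (log2 fold change −0.19, adjusted p = 0.915). *Nrg4* had 22 and 21 counts in KO and 10 and 26 counts in WT (−0.07, adjusted p = 0.982), and *Erbb4*, the receptor for epiregulin, betacellulin, HB-EGF and neuregulins, had 47 and 22 counts in KO and 13 and 23 counts in WT (0.63, adjusted p = 0.726). The genotypes overlapped for *Egf*, *Nrg4* and *Erbb4*. *Nrg3*, split over 3 IDs, had no count in any library.

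The other genes of the pathway were read from 4 lists chosen by function. Of 12 ligand sheddases and their regulators, 6 were tested, 1 was lower in KO and none higher (1.24% and 1.51% of all transcripts tested), with a median log2 fold change of −0.08. The lower gene was *Adam19*, a metalloprotease known to cut neuregulin precursors, with 1238 and 1288 counts in KO and 1549 and 2586 counts in WT (76.3 and 66.9 CPM against 130.5 and 165.1 CPM). Both KO libraries were below both WT libraries (log2 fold change −1.05, standard error 0.21, adjusted p = 0.022), a call lost without the WT library of passage 34 (adjusted p = 0.0528, log2 fold change −1.21) or of passage 42 (0.119, with −0.88), and *Adam19* overlaps *Gm16033* and *Gm16034* of the other strand. *Adam10*, a main sheddase of betacellulin and EGF, had −0.29 (adjusted p = 0.705), *Adam12* −0.15 and *Timp3*, an inhibitor of ADAM proteases, 0.19, and their libraries overlapped between the genotypes. *Adam17* and 5 others of this list were not tested.

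Of 22 feedback inhibitors of ErbB and ERK signalling, 19 were tested, 1 was higher in KO and none lower (1.51% and 1.24% of all transcripts tested), with a median of 0.09. An unadjusted p under 0.05 was found for 7 of the 19 and for 1768 of all 13855. The higher gene was *Lrig1*, whose membrane protein promotes the degradation of ErbB receptors. It had 5232 and 5360 counts in KO and 1932 and 2400 counts in WT (322.4 and 278.4 CPM against 162.7 and 153.2 CPM). Both KO libraries were above both WT libraries (log2 fold change 0.93, standard error 0.199, adjusted p = 0.0314), a call lost without the WT library of passage 34 (adjusted p = 0.183, log2 fold change 0.97) or of passage 42 (0.154, with 0.87), and *Lrig1* overlaps *Slc25a26* of the other strand. The Sprouty genes encode inhibitors of receptor tyrosine kinase signalling to Ras. *Spry4* had 704 and 1371 counts in KO and 150 and 444 counts in WT (log2 fold change 1.48, standard error 0.366, adjusted p = 0.0619), and *Spry1* 2111 and 3530 counts in KO and 652 and 1579 counts in WT (1.01, standard error 0.287, adjusted p = 0.113). Neither passed with the quasi-likelihood test as set here, but both did with DESeq2, with edgeR's exact test and with no filter, and *Spry4* did with RLE factors (adjusted p = 0.0475). With single libraries left out, *Spry4* lay between 1.02 (without WT of passage 34) and 2.17 (without WT of passage 42), *Spry1* was lowest at 0.64 without the same WT library of passage 34, and the KO libraries were above the WT libraries for both. Both were higher at passage 42 than at passage 34 (0.93, adjusted p = 0.0135, for *Spry4* and 0.68, adjusted p = 0.0176, for *Spry1*), as was *Spry2* (0.67, adjusted p = 0.0421), beside 1.77% of all transcripts tested, and DESeq2 called none of the list between the passages. *Socs5*, which lowers EGFR levels, had −0.65 (adjusted p = 0.13) between KO and WT.

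Of 30 receptor adaptors and kinases, 24 were tested and none passed between the genotypes. Of these 24, 2 had an unadjusted p under 0.05, beside 1768 of all 13855 transcripts tested, and the median was −0.14. The smallest p-values belonged to *Mapk3*, which encodes ERK1 (log2 fold change −0.78, adjusted p = 0.124), and *Pik3r1*, the regulatory subunit of phosphoinositide 3-kinase (−0.74, adjusted p = 0.134), followed by *Map2k1*, which encodes MEK1 (0.45, adjusted p = 0.424), and the adaptor *Gab1* (−0.56, adjusted p = 0.467). Of 24 transcripts known to respond to ERK, 21 were tested and none passed between the genotypes. An unadjusted p under 0.05 was found for 4 of the 21, beside the same 1768 of 13855, and the median of the 21 was 0.23. Their smallest p-values belonged to the transcription factor genes *Etv5* (0.78, adjusted p = 0.102), *Maff* (0.70, adjusted p = 0.223), *Egr2* (−0.79, adjusted p = 0.247) and *Jun* (0.53, adjusted p = 0.275). DESeq2 and edgeR's exact test also called none of these adaptors, kinases and ERK-responsive transcripts between the genotypes, but *Mapk3* passed in the edgeR fit with no filter on low counts (adjusted p = 0.0331). With single libraries left out, log2 fold changes lay between −1.10 and −0.52 for *Mapk3*, −0.89 and −0.61 for *Pik3r1* and −0.93 and −0.18 for *Gab1*. They lay between 0.62 and 0.92 for *Etv5*, 0.38 and 0.96 for *Maff* and −1.11 and −0.54 for *Egr2*. Across all 93 pathway genes outside the 10, 74 were tested and 2 passed, beside 2.75% of all transcripts tested, and 18 of the 19 not tested had several IDs, so that reads in their shared exons were set aside.

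**Figure D5:**
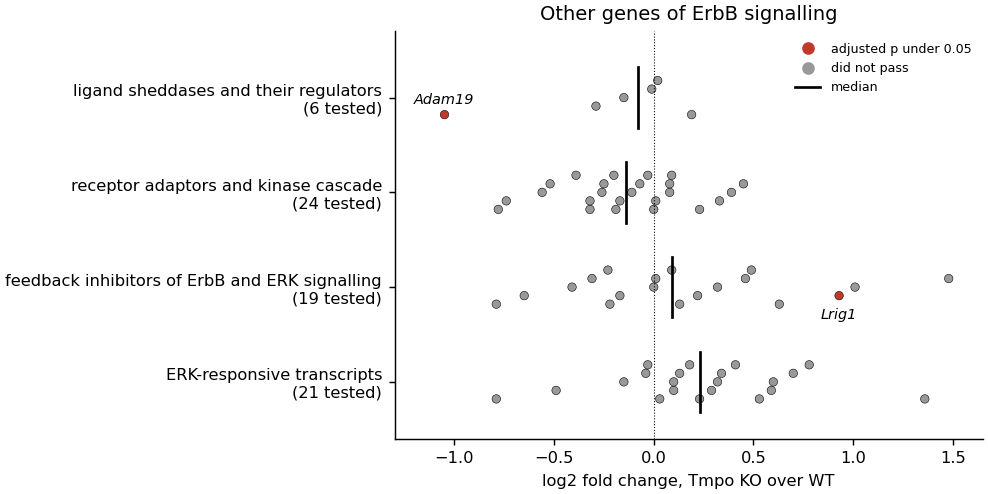
Log2 fold change, *Tmpo* KO over WT, of each tested gene in 4 lists of ErbB signalling genes, 1 point per gene with red for an adjusted p under 0.05 and a black line at the median of the list. The points scatter around 0 in each list, with medians between −0.14 and 0.23, and only *Adam19* (−1.05) and *Lrig1* (0.93) are red.

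The transcripts whose pattern over the 4 libraries was most like that of *Ereg*, by Euclidean distance between centred log2 CPM values, were *Pcdhgb4* (0.342), *Hoxb5* (0.343), *Hoxb6* (0.444), *Pdgfd* (0.473) and *Bnc1* (0.542). *Pcdhgb4* encodes a clustered protocadherin, *Hoxb5* and *Hoxb6* positional transcription factors, *Pdgfd* a ligand of PDGF receptors and *Bnc1* a zinc finger protein. *Pdgfd* had 328 and 291 counts in KO and 19 and 22 counts in WT, so that its KO libraries were above its WT libraries like those of *Ereg*. Their log2 fold changes lay between 3.52 for *Pcdhgb4* and 3.78 for *Bnc1*, and these are descriptions, since transcripts picked for a profile like that of *Ereg* had to differ. *Pcdhgb4* shares its constant exons with its family, *Hoxb5* and *Hoxb6* overlap *0610040B09Rik* of the other strand, and *Pdgfd* and *Bnc1* also overlap a gene of the other strand.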

How the data were processed

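The deposited values are raw counts. The authors removed adapters with cutadapt, aligned with TopHat2 (2.0.9) to mm9 and used htseq-count to assign confidently mapped reads to RefSeq transcripts, each ID being its own feature. dUTP marked the strand, but no source used here states whether htseq-count used it, so reads of overlapping opposite-strand genes may be mixed. Reads in no feature (49.9% to 56.5% of reads in a file) and ambiguous reads (12.1% to 13.4%) stayed out of library sizes and tests.

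Symbols came from RefSeq (GRCm38.p6, 32304 IDs) and positions from GENCODE vM1 on NCBIM37 (27312 IDs). Differential expression was tested in R 4.3.3 with edgeR 4.0.16 (TMM factors 0.979 to 1.03, glmQLFit and glmQLFTest, genotype only), and the biological coefficient of variation was 21.8%. The procedure was also run on simulated counts, with the same variation for every transcript and no passage effect. These libraries differ from that setting, so the run does not measure errors here. Standard errors are the fold change over the root of the test statistic. Replicates differed by more than counting noise (chi-square per degree of freedom 37.3 in KO and 22.5 in WT). Alternatives were DESeq2 1.42.0, edgeR's exact test, RLE factors, library totals, 2 other filters, counts per gene, a replicate block and each library left out. Python 3.11.15 with pandas 2.3.3 and matplotlib 3.10.9 made tables and plots.

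The genes and lists were chosen with earlier results of these data known. Named were the 10 genes, 5 further family members, up to 4 tested genes of each other list with the smallest p, every gene around *Ereg* that was tested, *Tmpo*, and the 5 profiles nearest to that of *Ereg*. *Spry2*, *Fos*, *Fosb*, *Ier2*, *Ier3*, *Etv1*, *Sos1*, *Adam17*, *Thy1*, *Csf1r*, *Tyr* and genes that were not tested were named after their values were seen. Protein sequences were not used here.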

Additional observations from a re-analysis of the deposited data

Results flagged for a closer look

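For 4 genes of the ErbB family the KO library lay on one side of the WT library at passage 42 and on the other at passage 34. The log2 CPM difference, KO minus WT, was −0.24 at passage 42 and 0.36 at passage 34 for *Tgfa*, 0.15 and −0.49 for *Erbb3*, −0.55 and 0.61 for *Nrg4*, and −0.33 and 1.31 for *Erbb4*. Each value compares 1 library per genotype, the genes had between 10 and 55 counts per library, and the difference between the passages was not tested.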

How the results depend on the processing

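*Ereg* was called higher in KO in all 12 alternatives run (3.15 to 3.45, adjusted p at most 0.00251) and *Hbegf* in 11 of 12 (1.36 to 1.86), the exception being the fit without the WT library of passage 34. Against 381 transcripts called in KO versus WT, edgeR's exact test called 613 and the fit with no filter 740, while leaving out single libraries gave 156 (without WT of passage 34) to 1199 (without KO of passage 42). The genes of the set called higher numbered 1 to 4 with single libraries left out, 4 without the KO library of passage 42, where *Areg* and *Epgn* were added. Those called lower, 0 otherwise, were 1 with DESeq2 and 1 with the exact test (*Btc* both times), 2 with no filter (*Btc* and *Egfr*) and 0 to 3 with single libraries left out (3 without KO of passage 42). A replicate block (equal to a passage block) gave 1092 transcripts and 3 genes of the set called lower (*Btc*, *Egfr* and *Nrg1*). With this block, *Egfr* had an adjusted p of 0.0003, and *Mapk3* (0.000437), *Pik3r1* (0.0194), *Etv5* (0.00205), *Jun* (0.0464), *Socs5* (0.00576), *Spry1* (9.41e-07), *Spry4* (4.11e-08) and *Ppbp* (0.00317) also passed. The same numbers share a passage but no stated pairing (correlation of deviations 0.175, over only 2 pairs). For passage 42 against 34, DESeq2 called 48 transcripts where edgeR called 320, and 0 genes of the set where edgeR called 1. Without single libraries the sign turned for *Tgfa* (−0.33 to 0.45), *Erbb2* (−0.29 to 0.05), *Erbb3* (−0.60 to 0.24), *Egf* (−0.41 to 0.02), *Nrg4* (−0.44 to 0.52), *Erbb4* (−0.18 to 1.15), *Adam12* (−0.36 to 0.08), *Timp3* (−0.32 to 0.57), *Cxcl15* (−0.27 to 0.32) and *Parm1* (−0.99 to 0.86), none of which was called. A fit without 1 library assumes that the lone library varies like the other genotype. The cause of these changes was not tested, and *Epgn*, with 2 counts in 1 WT library, could not be fitted with 1 CPM required in all libraries. Tests rest on 2 libraries per genotype.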

Other observations

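Some transcripts known to respond to ERK differed between the passages. Of the 21 tested, 4 were lower at passage 42 than at passage 34 and 1 was higher, beside 0.541% and 1.77% of all transcripts tested. The lower ones were the immediate-early genes *Fosb* (log2 fold change −2.47, adjusted p = 8.82e-10), *Fos* (−1.45, adjusted p = 1.25e-05), *Ier2* (−0.82, adjusted p = 0.00281) and *Ier3* (−0.79, adjusted p = 0.00921). *Fosb* had 54 counts in KO and 64 in WT at passage 42, against 363 and 188 at passage 34, and *Fos* had 543 in KO and 180 in WT at passage 42, against 749 and 644 at passage 34. In CPM both genes were lower at passage 42 in either genotype. The higher one was the ETS factor gene *Etv1* (1.57, adjusted p = 0.0251), with 144 counts in KO and 34 in WT at passage 42, against 26 and 16 at passage 34. Of the adaptors and kinases, *Sos1*, the exchange factor that activates Ras (0.82, adjusted p = 0.00137), and *Gab1* (0.68, adjusted p = 0.045) were higher at passage 42. With DESeq2, *Fos* alone of these genes was called between the passages.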
